A study of Arabidopsis thaliana with 12 samples.

Results

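Transcript levels of T31A seedlings were compared with those of K36A seedlings over 19610 genes, out of 23916 genes in the deposited table. A gene entered the comparison when its level reached at least 1 TPM in at least 3 of the 6 libraries of these genotypes. TPM is a read level scaled by gene length and library size. The filter did not ask for a difference, but 54 genes passed it through T31A alone and 237 through K36A alone. For those genes the higher level in 1 genotype decided entry. The plants were Arabidopsis thaliana seedlings, 10 days old, grown at 22 °C with 16 h of light a day and 8 h of darkness, and total RNA was sequenced in 12 libraries, 3 for each of 4 genotypes. T31A and K36A share their background, which is labelled as an H3.3 knockout (h3.3ko) that carries a copy of the H3.3 gene HTR5. The copy has alanine in place of threonine 31 in T31A and alanine in place of lysine 36 in K36A. The other genotypes were efs, mutated in the histone methyltransferase EFS (also known as SDG8), and the wild type Col. The labels give neither the promoter of the HTR5 copy nor the number of transgenic lines, and plants of this knockout carrying an unmutated copy were not analysed here. A difference between T31A and K36A therefore sets one substituted copy against the other and does not say which of them departs from an unmutated copy. Nothing in the labels says that libraries of 1 genotype stem from separate cultures. The p-values then cover only the spread between libraries, which may be technical.

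Histone H3 packages DNA into nucleosomes and comes in variants. H3.1 is laid down mostly while DNA is copied, whereas H3.3 is laid down throughout the cell cycle and is enriched over transcribed genes. Plant H3.3 carries threonine at position 31 and H3.1 carries alanine there, so the T31A copy has the H3.1 residue at this position. Lysine 36, a few residues further along the tail, is methylated over active genes by enzymes such as EFS, and the K36A copy cannot carry that mark. In Arabidopsis, EFS is known for keeping flowering repressors such as FLC active. The comparison asks how the exchange of threonine 31 for the H3.1 residue differs in effect on transcripts from the loss of the methylated lysine.

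The coding sequence around both residues shows what was exchanged and how the variants differ at these positions. The rest of the coding sequences is not shown. The following windows come from the RefSeq annotation of the TAIR10.1 assembly and run 5′ to 3′ on the coding strand over codons 29 to 38, counted without the initiator methionine. The capitals mark codon 31 and codon 36. They are sequences of the native reference genes, not of the introduced copies.
HTR5 (H3.3): gcaccaACCactggaggagtcAAGaagccc
HTR4 (H3.3): gcaccaACTactggtggagtcAAGaaacca
HTR8 (H3.3): gcaccaACCaccggaggagtcAAGaagcct
HTR1 (H3.1): gctccgGCGaccggaggagtaAAGaagcca
HTR2 (H3.1): gctccgGCCaccggaggagtgAAGaagcca
The HTR5 window lies on the minus strand at chr4:18558033-18558062, within coding exon sequence, and the HTR1 window on the minus strand at chr5:26120393-26120422. Codon 31 is a threonine codon in the H3.3 genes and an alanine codon in the H3.1 genes shown, whereas codon 36 is the same lysine codon in all 5 windows.

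The libraries grouped tightly by genotype. Whole reads recovered from the TPM steps numbered 34098031, 22334113 and 21020260 in T31A and 23616265, 19395783 and 18589078 in K36A. Across genes, log2(TPM + 1) correlated at 0.9939 to 0.9951 between T31A libraries, at 0.9894 to 0.9941 between K36A libraries and at 0.9692 to 0.9777 between the genotypes. The median coefficient of variation of a gene was 6.43% in T31A and 8.10% in K36A. Short genes stood lower against long ones in T31A, at -0.0678, -0.0506 and 0.0372 log2 units, than in K36A, at 0.0833, 0.187 and 0.0753 log2 units, and the genotypes did not overlap in this measure. The part of this measure in the results was not tested beyond a fit with a length and GC trend removed. Means below are given ± SD over 3 libraries, and differences are on the log2(TPM + 1) scale.

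The genes that define the genotypes differed little between T31A and K36A. The gene whose copy carries the substitution, HTR5 (AT4G40040), had 643, 633 and 681 TPM in T31A, against 593, 592 and 587 TPM in K36A. These libraries did not overlap, but the difference did not pass the test (log2 difference 0.14, SE 0.0776, adjusted p = 0.20). Reads of the native gene and of the introduced copy cannot be told apart. HTR4 (AT4G40030) had 185, 202 and 189 TPM in T31A, against 175, 155 and 170.4 TPM in K36A, with no overlap and no call (log2 difference 0.20, SE 0.0866, adjusted p = 0.097). Its difference passed the threshold with only these 6 libraries in the fit, after removal of the length and GC trend, and with voom on the recovered reads. HTR8 (AT5G10980) had 18.7, 12.4 and 18.3 TPM in T31A, against 22.5, 21.5 and 18.1 TPM in K36A, and its libraries overlapped (log2 difference -0.33, SE 0.138, adjusted p = 0.092). In Col the means were 329 TPM for HTR5, 276 TPM for HTR4 and 130 TPM for HTR8, and in efs 394, 262 and 219 TPM. HTR4 reads thus remained in both genotypes of the labelled knockout. Differences from Col and efs were not tested. EFS (AT1G77300) averaged 17.797 ± 2.90 TPM in T31A and 17.03 ± 2.18 TPM in K36A, with overlapping libraries and an adjusted p of 0.79.

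Across all genes, 5578 of the 19610 tested (28.4%) were called at an adjusted p under 0.05 in limma, 2027 (10.3%) higher and 3551 (18.1%) lower in T31A than in K36A. Most of these differences were small. With a fold of at least 2 as well, 133 genes (0.678%) were higher and 341 (1.74%) lower in T31A. The libraries of the genotypes did not overlap in 8800 genes (44.9%). The median log2 difference of all tested genes was -0.04, and the balance of directions moved with the scaling. Of the called genes, 36.3% were higher in T31A on the deposited scale. That share was 48.6% with median-of-ratios factors, 50.1% with quantile normalization and 50.4% after removal of the length and GC trend. None of the 128 called genes named by the rule, and none of the 239 called members of the gene lists and the extensin set, changed sign under any alternative run. The alternatives refit the same libraries, so a change of sign in a called gene was unlikely from the outset.

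**Figure D1:**
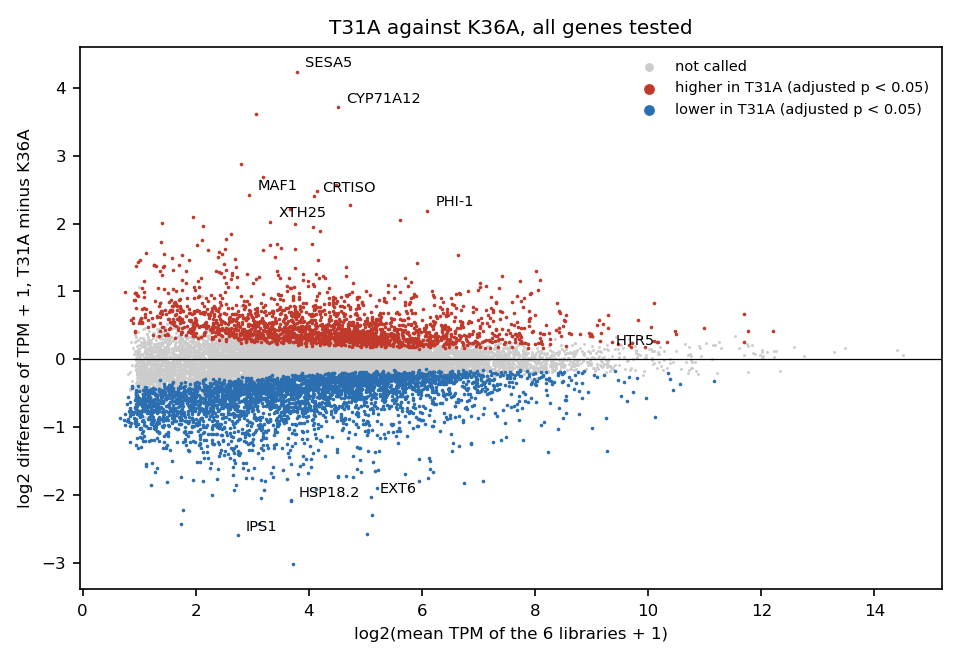
Log2 difference of TPM + 1, T31A minus K36A, against the log2 of the mean TPM + 1 of the 6 libraries, for the 19610 genes tested. Red points are the 2027 genes higher in T31A, blue points the 3551 genes lower in T31A at an adjusted p under 0.05, and grey points the rest. SESA5 and CYP71A12 stand at the top of the plot, and HTR5 lies near 0.

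Among the 5 H3.1 genes, which encode the replication-coupled variant, 3 were higher in T31A, where 10.3% of all genes were, and none was lower. HTR13 had 59.8, 57.1 and 59.2 TPM in T31A, against 41.8, 30.96 and 45.0 TPM in K36A (log2 difference 0.59, SE 0.132, adjusted p = 0.0040), with no overlap. HTR9 averaged 95.2 ± 2.37 TPM in T31A and 77.3 ± 4.94 TPM in K36A (log2 difference 0.30). HTR1 averaged 235 ± 18.3 TPM in T31A and 196 ± 8.69 TPM in K36A (log2 difference 0.26). The H3.1 genes are close copies of each other, so reads may have been split between them. Their count fell to 1 without T31A replicate 1, T31A replicate 3 or K36A replicate 1. It was 2 without T31A replicate 2 or K36A replicate 3. It was 4 with median-of-ratios factors, after removal of the length and GC trend or with voom on recovered reads, and 3 with quantile normalization.

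Partners of these histones mostly did not pass the test, which 28.4% of all genes passed. ATXR5 and ATXR6, methyltransferases of lysine 27, and TSK, a replication-linked repair factor, act on or bind H3.1 through its alanine 31, and none was called. ATXR6 averaged 2.90 ± 0.391 TPM in T31A and 2.43 ± 0.450 TPM in K36A. TSK averaged 2.65 ± 0.305 TPM in T31A and 2.15 ± 0.0501 TPM in K36A, with no overlap between libraries, and passed the threshold with quantile normalization and with voom on recovered reads. Of 7 tested H3K36 methyltransferases and readers, the reader MRG1 alone was called, lower in T31A with 21.1, 20.2 and 20.6 TPM in T31A, against 26.2, 26.5 and 24.4 TPM in K36A (log2 difference -0.30, SE 0.0670, adjusted p = 0.0036). Of 10 H3 chaperones, the proteins that hand histones to DNA, ASF1B alone was called, lower in T31A with 7.26, 7.32 and 6.74 TPM in T31A, against 8.64, 9.05 and 10.6 TPM in K36A (log2 difference -0.36, SE 0.107, adjusted p = 0.020). The ASF1B call was lost with quantile normalization and without T31A replicate 3 or K36A replicate 3, and a further gene of the H3K36 list was called lower without K36A replicate 2 and another higher after removal of the length and GC trend. None of the 3 linker histone genes was called, although HIS1-3 was higher after removal of that trend (log2 difference 0.23, adjusted p = 0.023) and H1.1 was lower with only the 6 libraries in the fit (log2 difference -0.19, adjusted p = 0.016).

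The steepest rises in T31A were in seed storage and indole defence genes. SESA5 (AT5G54740), a seed storage albumin, had 25.96, 22.7 and 27.1 TPM in T31A, against 0.805, 0.275 and 0.147 TPM in K36A (log2 difference 4.24, SE 0.175, adjusted p = 1.7e-09). CYP71A12 (AT2G30750), a cytochrome P450 that makes indole-3-acetonitrile on the way to camalexin and related defence compounds, had 40.8, 41.3 and 42.8 TPM in T31A, against 2.18, 1.94 and 2.65 TPM in K36A (log2 difference 3.72, SE 0.113, adjusted p = 9.0e-11). CYP71A12 was thus 18.5-fold higher in mean TPM. The 15 largest rises and 15 largest falls were picked among called genes without overlap between the groups. Their lack of overlap was therefore given by the choice. AT1G26390, annotated as a berberine family protein with FAD binding, had 16.3, 13.5 and 13.8 TPM in T31A, against 0.270, 0.323 and 0.207 TPM in K36A. FOX1 (AT1G26380), a neighbour in the same family that oxidises indole compounds, had 14.8, 14.03 and 15.6 TPM in T31A, against 1.35, 1.74 and 1.27 TPM in K36A. AT1G14550, a peroxidase family gene, had 11.5, 10.9 and 11.35 TPM in T31A, against 0.618, 0.517 and 0.869 TPM in K36A. All 3 were above 10 TPM in every T31A library and under 2 TPM in every K36A library. SESA5, AT1G26390 and AT1G14550 passed the filter through T31A alone, so they could be tested only because they were higher there.

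Among the 15 largest rises were MAF1 and CRTISO, whose activity is known to depend on EFS. MAF1 (AT1G77080, also known as FLM), a flowering repressor of the FLC family, had 12.3, 11.6 and 12.04 TPM in T31A, against 1.57, 1.44 and 1.23 TPM in K36A (log2 difference 2.43, SE 0.0940, adjusted p = 1.3e-09). CRTISO (AT1G06820), the carotenoid isomerase of the chloroplast, had 26.95, 28.7 and 27.7 TPM in T31A, against 4.45, 4.398 and 4.45 TPM in K36A (log2 difference 2.41, SE 0.0719, adjusted p = 9.0e-11). In both genes the spread within a genotype was small against the gap between genotypes. Across all 4 genotypes, CRTISO averaged 27.8 ± 0.884 TPM in T31A, 4.43 ± 0.0302 TPM in K36A, 1.65 ± 0.0735 TPM in efs and 33.4 ± 0.710 TPM in Col, so K36A and efs lay at the low end and T31A next to Col. AT5G60030, an uncharacterized protein gene that overlaps another annotated gene, had both of them low as well, with 37.2 ± 1.14 TPM in T31A, 5.48 ± 0.921 TPM in K36A, 9.22 ± 1.82 TPM in efs and 37.4 ± 8.25 TPM in Col.

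The other large rises included detoxification and cell wall genes. GSTF6 and GSTF7 are neighbouring glutathione S-transferases, which conjugate glutathione to reactive compounds. GSTF6 averaged 42.8 ± 5.24 TPM in T31A and 8.10 ± 1.262 TPM in K36A. GSTF7 averaged 78.3 ± 7.22 TPM in T31A and 18.1 ± 0.777 TPM in K36A. Their similar sequences may share reads. GLP9, a germin-like protein, averaged 29.2 ± 1.16 TPM in T31A and 4.43 ± 0.673 TPM in K36A (log2 difference 2.48). PHI-1 (AT1G35140), of the EXORDIUM family of extracellular proteins tied to growth, had 115, 106 and 112 TPM in T31A, against 25.1, 24.4 and 21.04 TPM in K36A (log2 difference 2.19, SE 0.0904, adjusted p = 1.7e-09). XTH25, which remodels xyloglucan in the wall, had 14.98, 14.8 and 15.1 TPM in T31A, against 3.51, 2.54 and 2.72 TPM in K36A (log2 difference 2.03, SE 0.114, adjusted p = 3.3e-08). Levels in the other genotypes varied widely, with PHI-1 at 305 TPM in efs and 3.59 TPM in Col. CRC and CYP81F2, the remaining members of the 15, are described with their pathways.

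The largest falls in T31A were in small secreted proteins, phosphate starvation transcripts and extensins. AT3G59930, annotated as defensin-like, had 2.31, 1.59 and 1.65 TPM in T31A, against 21.4, 17.9 and 27.97 TPM in K36A (log2 difference -3.03, SE 0.193, adjusted p = 1.2e-07). IPS1 (AT3G09922), a transcript induced by phosphate starvation that sequesters a microRNA, had 0.730, 0.560 and 1.55 TPM in T31A, against 10.2, 10.3 and 10.8 TPM in K36A (log2 difference -2.59, SE 0.265, adjusted p = 6.4e-06). Both were under 3 TPM in every T31A library and above 10 TPM in every K36A library. AT5G42530, an uncharacterized protein gene, had 6.48, 10.08 and 8.83 TPM in T31A, against 58.5, 47.4 and 59.1 TPM in K36A. AT2G16005, with a lipid recognition domain, had 11.95, 9.18 and 11.39 TPM in T31A, against 57.4, 59.9 and 52.9 TPM in K36A. AGP30, an arabinogalactan protein of the root cell wall, had 5.26, 3.5002 and 3.104 TPM in T31A, against 18.4, 24.9 and 16.3 TPM in K36A (log2 difference -2.08, SE 0.273, adjusted p = 6.3e-05). The lack of overlap in these genes was a condition of the choice. AT4G19430, also uncharacterized, averaged 1.79 ± 0.979 TPM in T31A and 13.5 ± 0.984 TPM in K36A. AT4G22230, another defensin-like gene, averaged 2.88 ± 1.18 TPM in T31A and 13.6 ± 3.104 TPM in K36A. AT4G25790, of the CAP superfamily of secreted proteins, averaged 1.85 ± 0.633 TPM in T31A and 9.19 ± 1.05 TPM in K36A.

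Extensins, hydroxyproline-rich proteins that crosslink in the cell wall and are prominent in root hairs, made up 5 of the 15 largest falls. AT3G54580 had 51.7, 52.1 and 35.95 TPM in T31A, against 179, 153 and 166 TPM in K36A (log2 difference -1.83, SE 0.190, adjusted p = 7.4e-06). EXT6 had 14.4, 14.1 and 9.66 TPM in T31A, against 55.5, 50.7 and 56.3 TPM in K36A. EXT12 had 15.4, 17.3 and 11.3 TPM in T31A, against 57.0, 51.8 and 62.03 TPM in K36A. In these 3 genes T31A replicate 3 was the lowest library. AT5G06630 averaged 6.34 ± 0.964 TPM in T31A and 26.6 ± 2.18 TPM in K36A. AT4G08410 averaged 2.48 ± 0.0738 TPM in T31A and 13.3 ± 0.616 TPM in K36A. Extensins are repetitive and similar to each other, so reads may have been shared among them.

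**Figure D2:**
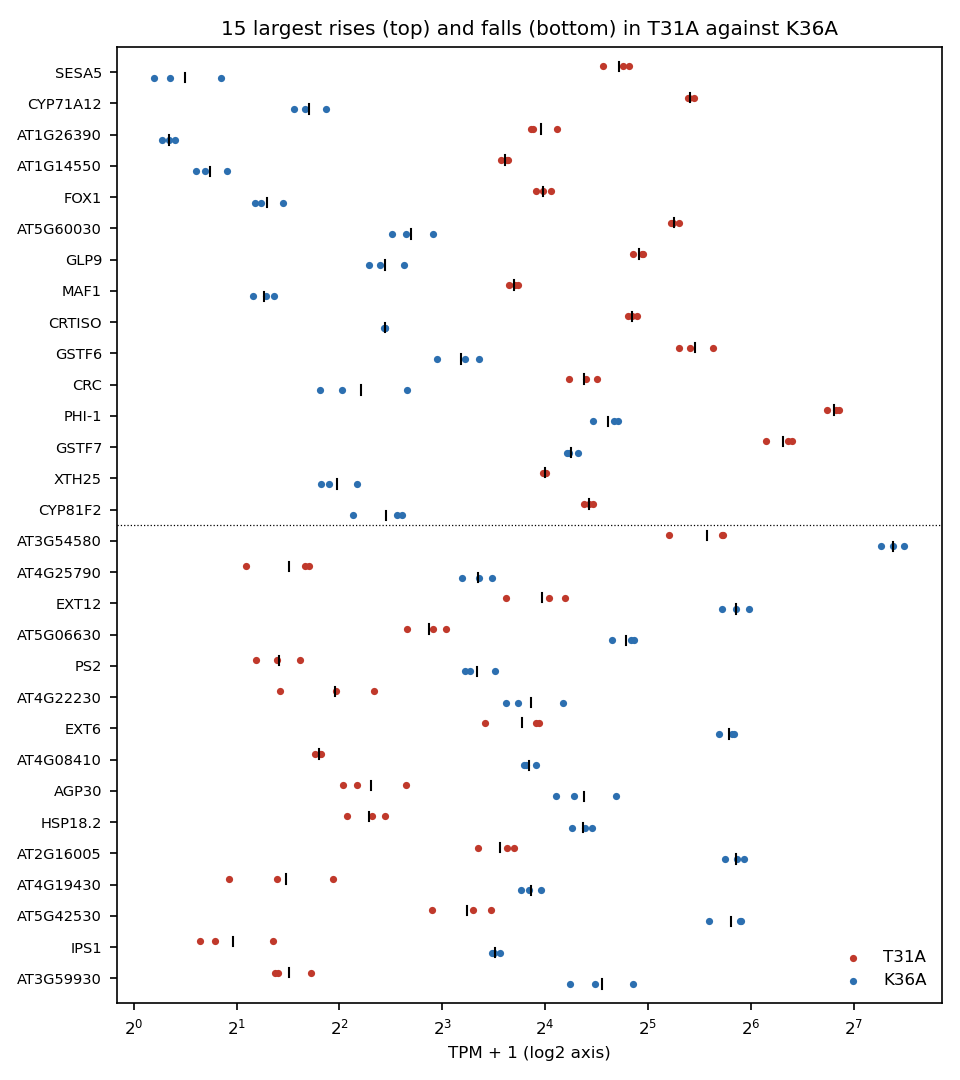
TPM + 1 on a log2 axis in each T31A library (red) and each K36A library (blue) for the 15 largest rises (top) and the 15 largest falls (bottom) in T31A, with black ticks at the group means. The red and blue points overlap in no gene, which was a condition of the choice. The lowest K36A values, under 1 TPM, belong to SESA5, AT1G26390 and AT1G14550.

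The flowering repressors of the FLC clade were higher in T31A. All 5 tested members were called higher, where 10.3% of all genes were, and their median log2 difference was 0.88, against -0.04 over all genes. FLC (AT5G10140) passed the filter through T31A alone, so its place in that count was given by the filter. MAF2 had 21.2, 21.4 and 22.3 TPM in T31A, against 11.43, 12.1 and 10.4 TPM in K36A (log2 difference 0.88, SE 0.0860, adjusted p = 4.4e-06). MAF3 had 7.60, 8.21 and 7.68 TPM in T31A, against 2.72, 2.42 and 2.88 TPM in K36A (log2 difference 1.27, SE 0.110, adjusted p = 1.5e-06). For MAF2 and MAF3, which also delay flowering, no libraries overlapped. MAF4 averaged 2.19 ± 0.0898 TPM in T31A and 1.46 ± 0.0261 TPM in K36A (adjusted p = 0.019). FLC, the repressor silenced by vernalization, averaged 1.17 ± 0.0310 TPM in T31A and 0.643 ± 0.0698 TPM in K36A (adjusted p = 0.019). MAF5 lay below the filter, with 1.005, 0.989 and 0.862 TPM in T31A, against 0.485, 0.669 and 0.692 TPM in K36A. The count was 4 in each fit without 1 library, since MAF4 lost its call without T31A replicate 2 or K36A replicate 1, and FLC lost its call without T31A replicate 1, T31A replicate 3, K36A replicate 2 or K36A replicate 3.

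Levels in efs and Col set the members of the clade apart. MAF1 averaged 11.97 ± 0.379 TPM in T31A, 1.41 ± 0.168 TPM in K36A, 1.18 ± 0.109 TPM in efs and 14.9 ± 0.733 TPM in Col, so it was low in both K36A and efs. MAF2 averaged 21.6 ± 0.592 TPM in T31A, 11.3 ± 0.836 TPM in K36A, 20.8 ± 1.44 TPM in efs and 22.8 ± 2.28 TPM in Col. MAF3 averaged 7.83 ± 0.336 TPM in T31A, 2.67 ± 0.237 TPM in K36A, 6.83 ± 1.14 TPM in efs and 6.12 ± 0.336 TPM in Col. For MAF2 and MAF3, K36A alone was low, and efs was close to T31A and Col. FLC was at 0.262 TPM in efs and 4.75 TPM in Col, so Col was above both T31A and K36A. These levels are a description, and differences from efs and Col were not tested here.

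Among floral promoters and repressors a few genes were called in either direction, near the shares of all genes. SEP3 (AT1G24260), a MADS-box gene of floral organs, had 9.14, 9.62 and 10.02 TPM in T31A, against 34.5, 30.5 and 37.1 TPM in K36A (log2 difference -1.72, SE 0.0872, adjusted p = 1.4e-08). Among 13 tested floral promoters and repressors, 3 were lower and 2 higher in T31A, where 18.1% and 10.3% of all genes were. The list's median was -0.04, that of all genes. SPL9, which promotes the adult phase, had 11.6, 9.83 and 10.99 TPM in T31A, against 15.4, 17.7 and 14.2 TPM in K36A (log2 difference -0.50, SE 0.0964, adjusted p = 0.0012). SPL3, of the same family, averaged 13.3 ± 1.29 TPM in T31A and 17.2 ± 0.301 TPM in K36A, and lost its call under 3 scalings, with voom, and without T31A replicate 1, K36A replicate 1 or K36A replicate 2. SPL9 and SPL3 overlap other annotated genes. The higher genes were repressors of FT. TOE2 averaged 28.8 ± 1.23 TPM in T31A and 23.0 ± 1.67 TPM in K36A. TEM2 averaged 89.2 ± 4.45 TPM in T31A and 71.4 ± 7.62 TPM in K36A. The higher count was 0 without T31A replicate 1 and 1 without T31A replicate 3, K36A replicate 2 or K36A replicate 3. It was 3 with median-of-ratios factors or with voom. FT, the mobile flowering signal, was below the filter, with 0.151, 0 and 0 TPM in T31A, against 0.581, 0.738 and 0.976 TPM in K36A. SOC1, a target of FT, averaged 21.1 ± 0.174 TPM in T31A and 25.4 ± 2.03 TPM in K36A with no call.

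Clock genes that peak around dawn were lower in T31A. Of 9 tested morning genes, 8 were lower, where 18.1% of all genes were, and none was higher, with a median log2 difference of -0.61. CCA1 (AT2G46830), a central repressor of the clock, had 4.66, 5.02 and 4.74 TPM in T31A, against 10.3, 10.6 and 10.2 TPM in K36A (log2 difference -0.97, SE 0.0776, adjusted p = 6.8e-07). LNK1, a coactivator in the morning loop, had 20.2, 21.1 and 18.1 TPM in T31A, against 34.9, 34.5 and 36.4 TPM in K36A (log2 difference -0.80, SE 0.0711, adjusted p = 1.7e-06). RVE1, which links the clock to auxin, had 1.86, 1.35 and 1.29 TPM in T31A, against 6.52, 5.52 and 6.48 TPM in K36A (log2 difference -1.52, SE 0.142, adjusted p = 2.7e-06). No libraries of the genotypes overlapped in these genes, although LNK1 and RVE1 overlap other annotated genes. RVE4 and RVE8 activate evening genes. RVE4 averaged 36.8 ± 1.47 TPM in T31A and 51.8 ± 2.42 TPM in K36A. RVE8 averaged 2.03 ± 0.174 TPM in T31A and 3.65 ± 0.478 TPM in K36A. The repressor PRR9 was lower as well, at 2.09 ± 0.376 TPM in T31A and 5.10 ± 0.907 TPM in K36A, and so were PRR7 and LNK2, at log2 differences of -0.22 and -0.48. RVE6 was not called (8.03 TPM in T31A against 7.61 TPM in K36A), and LHY, the partner of CCA1, was below the filter with 0.312 TPM in T31A against 0.659 TPM in K36A. The count was 7 or 8 in the fits without 1 library. The labels give no time of harvest.

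Evening genes went both ways. Of 11 tested, 4 were higher and 2 lower in T31A, where 10.3% and 18.1% of all genes were. Their median was 0.15. CHE (AT5G08330), a TCP factor that represses CCA1, had 177, 169.7 and 173 TPM in T31A, against 109.9, 103 and 101.1 TPM in K36A (log2 difference 0.72, SE 0.0744, adjusted p = 6.6e-06). PRR3, which stabilizes the evening protein TOC1, had 32.6, 38.1 and 33.7 TPM in T31A, against 20.4, 19.1 and 21.9 TPM in K36A (log2 difference 0.74, SE 0.0727, adjusted p = 4.5e-06). ELF4, of the evening complex, had 220.1, 231 and 218 TPM in T31A, against 272, 277 and 312 TPM in K36A (log2 difference -0.36, SE 0.0879, adjusted p = 0.0069). CHE and PRR3 were higher in every T31A library and ELF4 was lower in every one, although ELF4 lost its call after removal of the length and GC trend. BOA averaged 10.9 ± 0.529 TPM in T31A and 8.66 ± 0.911 TPM in K36A. FKF1, a blue light receptor of the photoperiod pathway, averaged 75.1 ± 5.83 TPM in T31A and 63.3 ± 3.98 TPM in K36A. PRR5 averaged 66.6 ± 5.27 TPM in T31A and 79.97 ± 2.35 TPM in K36A, lower in T31A. TOC1, ELF3, LUX, GI and ZTL were not called. The higher count fell to 2 without T31A replicate 1, T31A replicate 2 or K36A replicate 1. It was 3 without K36A replicate 2 or K36A replicate 3 and 5 without T31A replicate 3. It was 6 with median-of-ratios factors, quantile normalization or voom, and after removal of the length and GC trend. The lower count fell to 1 without T31A replicate 1, T31A replicate 3, K36A replicate 1 or K36A replicate 3.

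Photoperiod and shade genes showed a few differences each. Of 6 photoperiod genes, FKF1 among them, 2 were higher and 2 lower, where 10.3% and 18.1% of all genes were. CDF2, a repressor of CO and FT, had 3.36, 4.28 and 3.29 TPM in T31A, against 7.09, 6.03 and 6.45 TPM in K36A (log2 difference -0.70, SE 0.117, adjusted p = 4.7e-04). Its relative CDF5 went the other way, with 18.9, 18.9 and 17.1 TPM in T31A, against 13.8, 13.5 and 12.5 TPM in K36A (log2 difference 0.44, SE 0.106, adjusted p = 0.0066). CDF3 averaged 29.5 ± 2.23 TPM in T31A and 38.2 ± 0.991 TPM in K36A and lost its call under 8 alternatives, among them median-of-ratios and quantile scaling. Each of these counts was 1 without T31A replicate 1, T31A replicate 2, K36A replicate 1 or K36A replicate 2. The lower one was 1 also without K36A replicate 3. The higher one was 3 without T31A replicate 3, with median-of-ratios factors, quantile normalization or voom, and after removal of the length and GC trend. Of 7 phytochrome-interacting factor and shade genes, 2 were higher and 1 lower, beside the same shares of all genes. The 2 higher ones are factors that drive growth in shade or darkness. PIF3 had 16.8, 16.9 and 16.4 TPM in T31A, against 11.9, 11.9 and 11.8 TPM in K36A (log2 difference 0.46, SE 0.0727, adjusted p = 2.8e-04). PIF7 averaged 30.02 ± 1.87 TPM in T31A and 20.9 ± 0.899 TPM in K36A. HFR1, which holds these factors back, had 23.9, 24.1 and 22.6 TPM in T31A, against 32.2, 35.96 and 32.2 TPM in K36A (log2 difference -0.49, SE 0.0705, adjusted p = 1.3e-04). PIF3 and PIF7 were thus higher and HFR1 lower, and the other 4 genes were not called. Without K36A replicate 3, or after removal of the length and GC trend, 2 genes of the list were lower.

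**Figure D3:**
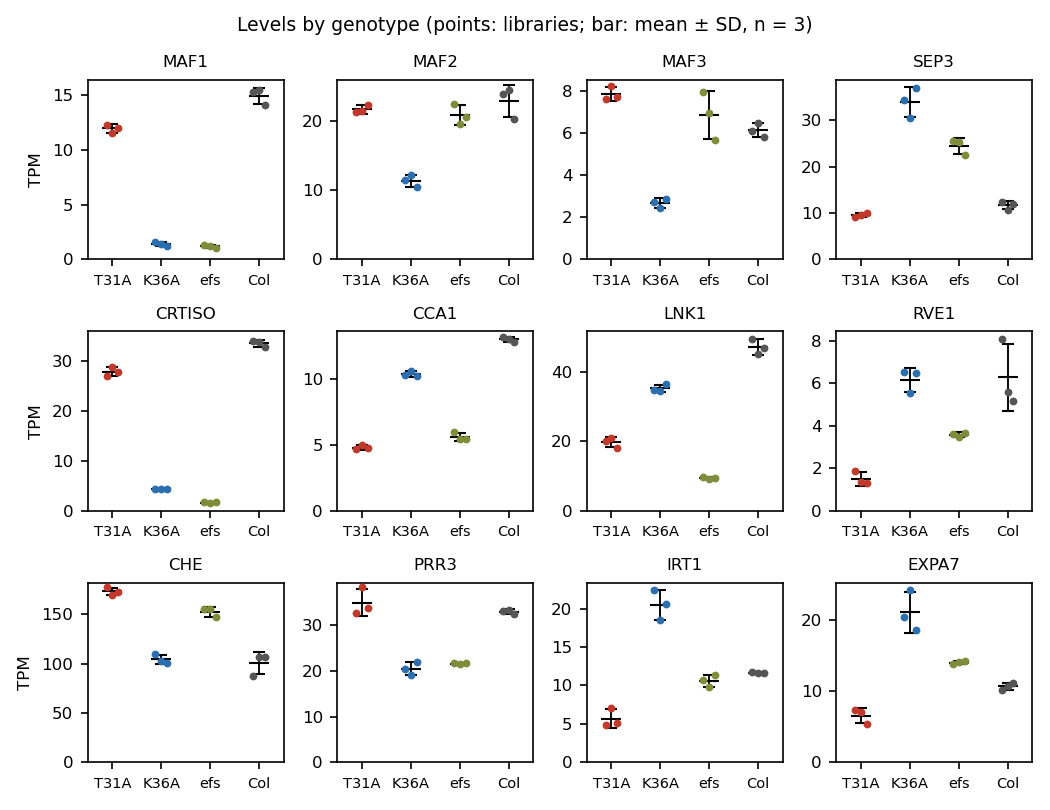
TPM of 12 genes in each library, by genotype (T31A, K36A, efs and Col, left to right), with the mean and SD of the 3 libraries in black. MAF1 and CRTISO are low in K36A and efs, MAF2 and MAF3 in K36A alone, and SEP3, CCA1, LNK1, RVE1, IRT1 and EXPA7 are lower in T31A than in K36A.

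Root genes were lower in T31A, and most green tissue genes did not pass the test, which 28.4% of all genes passed. Of 18 tested root markers 16 were lower, where 18.1% of all genes were, and none higher in T31A, with a median log2 difference of -0.67, and SMB among them passed the filter through K36A alone. The summed level of the list was 2257, 2327 and 2230.3 TPM in T31A, against 2976, 2949.9 and 3016 TPM in K36A, with 2801 to 2859 TPM in efs and 2701 to 2958 TPM in Col. PYK10, a root beta-glucosidase, made up most of these sums, with 2052 TPM in T31A against 2562 TPM in K36A. Without it, the other 20 markers summed to 234, 216 and 209 TPM in T31A, against 416, 451 and 389.98 TPM in K36A, with 335 to 357 TPM in efs and 236 to 371 TPM in Col. The T31A libraries were below every K36A library on either sum. The summed level of 10 green tissue markers was 36120.2 to 37573 TPM in T31A, against 33467 to 34641 TPM in K36A, 32873 to 32932 TPM in efs and 36991 to 39337 TPM in Col. Among these PETE1, for plastocyanin, was the single called gene, higher in T31A (log2 difference 0.38, SE 0.0768, adjusted p = 0.0021), and 2 were higher without K36A replicate 2 and 3 after removal of the length and GC trend or with voom on recovered reads. None of the markers of either list was at 0 in all 6 libraries. In whole seedlings, fewer cells of a type and less RNA per cell cannot be told apart.

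The root markers with the largest differences belong to root hairs. EXPA7 (AT1G12560), an expansin of growing root hairs, had 7.33, 7.05 and 5.38 TPM in T31A, against 20.5, 24.3 and 18.7 TPM in K36A (log2 difference -1.55, SE 0.110, adjusted p = 2.6e-07). EXPA18, its close relative, had 7.32, 4.27 and 5.49 TPM in T31A, against 18.1, 18.6 and 17.83 TPM in K36A. PRP3, a proline-rich wall protein of root hairs, had 37.3, 35.6 and 35.1 TPM in T31A, against 104, 116 and 91.9 TPM in K36A (log2 difference -1.50, SE 0.169, adjusted p = 1.5e-05). Every K36A library was above every T31A library in these genes. PRP1, another such wall protein, averaged 9.62 ± 1.82 TPM in T31A and 34.03 ± 2.71 TPM in K36A. LRX1, which shapes the root hair wall, averaged 7.30 ± 1.62 TPM in T31A and 21.7 ± 1.85 TPM in K36A. The root hair regulators were lower too. RHD6 averaged 1.32 ± 0.724 TPM in T31A and 2.99 ± 0.262 TPM in K36A. RSL4, which it activates, averaged 2.23 ± 0.279 TPM in T31A and 4.31 ± 0.296 TPM in K36A. Genes of the endodermis had smaller log2 differences. CASP1, which builds the Casparian strip, averaged 49.0 ± 2.22 TPM in T31A and 73.4 ± 6.75 TPM in K36A (log2 difference -0.57). Its regulator MYB36 averaged 3.73 ± 0.389 TPM in T31A and 6.59 ± 0.310 TPM in K36A (log2 difference -0.69). SHR, which patterns the root, was lower at a log2 difference of -0.45, while SCR (35.9 TPM in T31A against 37.6 TPM in K36A) and the suberin gene GPAT5 (6.18 TPM in T31A against 7.02 TPM in K36A) were not called.

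Iron deficiency genes were lower in T31A. Of 16 tested, 12 were lower and 1 higher, where 18.1% of all genes were lower and 10.3% higher, with a median of -0.93, and both regulators and uptake genes were among them. IRT1 (AT4G19690), the main iron uptake transporter of the root epidermis, had 4.89, 7.08 and 5.09 TPM in T31A, against 22.4, 18.5 and 20.6 TPM in K36A (log2 difference -1.70, SE 0.114, adjusted p = 1.8e-07). BHLH101, a transcription factor induced by low iron, had 13.1, 13.1 and 13.1 TPM in T31A, against 41.9, 43.9 and 41.8 TPM in K36A (log2 difference -1.62, SE 0.105, adjusted p = 1.2e-07). In both, K36A was highest of the 4 genotypes, with IRT1 at 10.6 TPM in efs and 11.7 TPM in Col and BHLH101 at 9.53 TPM in efs and 18.15 TPM in Col. BHLH38 averaged 9.56 ± 1.03 TPM in T31A and 27.5 ± 2.87 TPM in K36A. BHLH39, its neighbour in the same subgroup, averaged 15.04 ± 0.467 TPM in T31A and 34.9 ± 2.26 TPM in K36A. BHLH100 averaged 18.97 ± 0.361 TPM in T31A and 50.8 ± 5.85 TPM in K36A. All 4 factors of this subgroup were therefore lower. The ferric reductase gene FRO2 averaged 1.45 ± 0.0549 TPM in T31A and 4.90 ± 0.212 TPM in K36A. The peptide genes IMA1, IMA2 and IMA3, which signal low iron, were lower, at log2 differences of -0.91, -0.95 and -1.16. FER1, the ferritin that stores iron and falls when iron is short, was the gene called in the other direction, with 92.97, 88.8 and 94.6 TPM in T31A, against 61.6, 63.8 and 55.2 TPM in K36A (log2 difference 0.61, SE 0.0684, adjusted p = 1.5e-05). FIT, the regulator of IRT1 in the root, was not called (3.44 ± 0.263 TPM in T31A and 4.38 ± 0.700 TPM in K36A, adjusted p = 0.12), nor were PYE and NAS4. The root marker sums were lower in the same T31A libraries, and their part in this difference was not tested.

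Phosphate starvation genes were also lower, 9 of 12 against 18.1% of all genes, with none higher and a median of -0.64. SPX1 (AT5G20150), a phosphate sensor, had 48.6, 52.7 and 50.7 TPM in T31A, against 95.1, 85.1 and 109 TPM in K36A (log2 difference -0.91, SE 0.0923, adjusted p = 6.0e-06). PS2, an inorganic pyrophosphatase induced by phosphate shortage, had 1.63, 1.28 and 2.08 TPM in T31A, against 8.33, 10.4 and 8.65 TPM in K36A (log2 difference -1.93, SE 0.148, adjusted p = 5.2e-07). The transporter gene PHT1;4 had 6.36, 6.57 and 6.85 TPM in T31A, against 11.6, 11.5 and 11.3 TPM in K36A (log2 difference -0.72, SE 0.0751, adjusted p = 7.9e-06). All 3 were lower in each T31A library than in any K36A library. SQD1, for the sulfolipid that replaces phospholipids, averaged 119 ± 6.54 TPM in T31A and 179 ± 7.28 TPM in K36A. MGD3, for galactolipids, averaged 2.73 ± 0.229 TPM in T31A and 5.70 ± 0.830 TPM in K36A. The acid phosphatase gene PAP17 averaged 22.2 ± 0.744 TPM in T31A and 36.5 ± 3.34 TPM in K36A. No libraries of the genotypes overlapped in these 3 genes. SPX3 (0.560 TPM in T31A against 2.56 TPM in K36A) passed the filter through K36A alone, and PHO1;H1, PHF1 and SQD2 were not called. SPX1 was at 14.2 TPM in efs and 85.1 TPM in Col, and PS2 at 0.871 TPM in efs and 5.29 TPM in Col, so efs was below both T31A and K36A. The part of the lower root marker level in these differences was not tested.

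**Figure D4:**
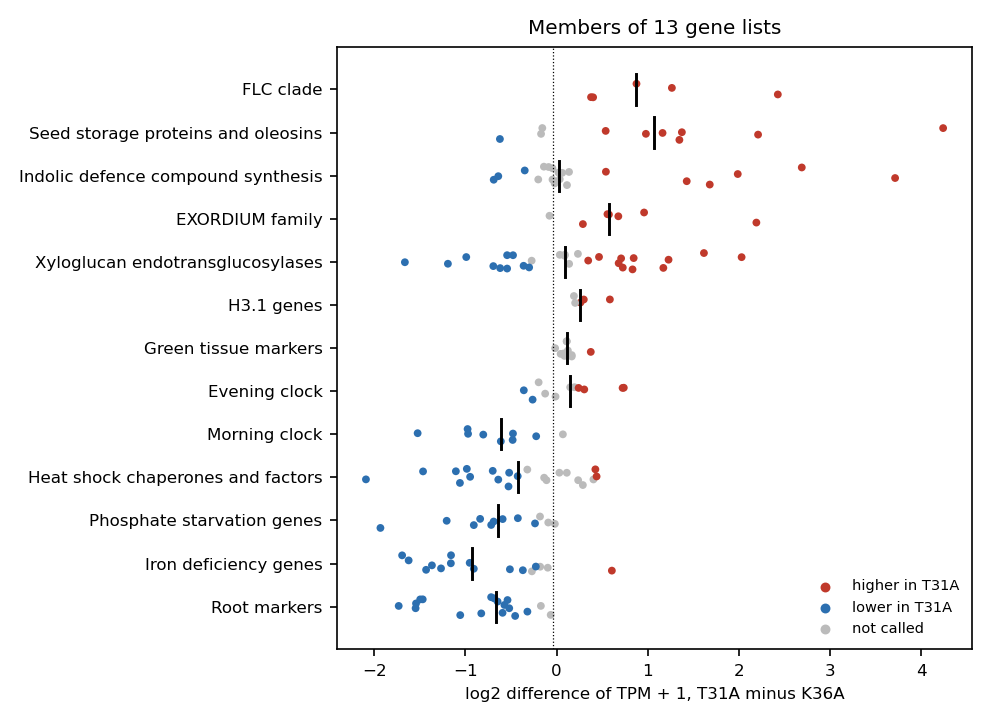
Log2 difference of TPM + 1, T31A minus K36A, of each tested member of 13 gene lists (1 point per gene), with a black bar at the list's median and a dotted line at the median of all genes, -0.04. Red and blue points passed an adjusted p of 0.05. The medians run from 1.07 for seed storage proteins and 0.88 for the FLC clade to -0.67 for root markers and -0.93 for iron deficiency genes. They include genes that passed the filter through 1 genotype alone, among them SESA5, SESA1, OLEO1 and FLC through T31A and SMB through K36A.

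Seed storage genes stood high in T31A seedlings. Of 10 tested, 7 were higher and 1 lower, where 10.3% of all genes were higher and 18.1% lower, and the median was 1.07, but SESA5, SESA1 and OLEO1 passed the filter through T31A alone. CRC (AT4G28520), a cruciferin, had 21.6, 17.75 and 20.01 TPM in T31A, against 3.07, 5.29 and 2.51 TPM in K36A (log2 difference 2.21, SE 0.212, adjusted p = 3.5e-06). CRA1, another cruciferin, had 19.5, 15.96 and 19.6 TPM in T31A, against 5.77, 8.37 and 5.81 TPM in K36A (log2 difference 1.35, SE 0.141, adjusted p = 7.6e-06). OLEO1, an oil body protein, had 2.93, 2.29 and 2.47 TPM in T31A, against 0.249, 0.696 and 0.213 TPM in K36A. The libraries of the genotypes did not overlap in these genes. SESA2 averaged 3.68 ± 1.15 TPM in T31A and 1.07 ± 0.332 TPM in K36A. SESA3 went the other way, with 0.686 ± 0.380 TPM in T31A and 1.57 ± 0.362 TPM in K36A, and lost its call without T31A replicate 2, T31A replicate 3, K36A replicate 1 or K36A replicate 3, with quantile normalization, after removal of the length and GC trend, and with voom. SESA1, SESA2, SESA3 and SESA5 are similar albumins, whose reads may have been split. CRA1 was at 38.3 TPM in efs and 1.48 TPM in Col, above T31A in efs and below K36A in Col. None of 6 tested regulators of the seed program was higher, except 1 without K36A replicate 1, with voom, with quantile normalization or with median-of-ratios factors. DOG1, the dormancy regulator, was lower, with 2.56, 1.79 and 3.02 TPM in T31A, against 5.02, 4.37 and 5.32 TPM in K36A (log2 difference -0.79, SE 0.135, adjusted p = 5.5e-04).

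Of 24 late embryogenesis abundant and dehydrin genes, 4 were higher and 8 lower in T31A, where 10.3% and 18.1% of all genes were. Of these 24 genes, 3 passed the filter through 1 genotype. COR6.6 averaged 221 ± 17.1 TPM in T31A and 106 ± 11.005 TPM in K36A. KIN1, its near-identical neighbour, averaged 0.233 ± 0.0423 TPM in T31A and 2.75 ± 0.302 TPM in K36A. Reads of this pair may have been shared, and KIN1 passed the filter through K36A alone. LTI30, a dehydrin of the cold and drought response, had 18.02, 17.97 and 19.1 TPM in T31A, against 28.8, 28.96 and 32.9 TPM in K36A (log2 difference -0.69, SE 0.111, adjusted p = 3.4e-04). ECP63, an embryonic gene of the family, averaged 25.1 ± 0.748 TPM in T31A and 43.0 ± 4.52 TPM in K36A. Both were lower in every T31A library. Of 16 genes of abscisic acid synthesis and signalling, 2 were higher and 5 lower, beside the same shares of all genes. RD29A, a drought and abscisic acid marker, was higher, with 31.4, 32.4 and 32.6 TPM in T31A, against 16.8, 17.03 and 14.6 TPM in K36A (log2 difference 0.95, SE 0.0900, adjusted p = 3.0e-06), next to a mean of 33.3 TPM in Col. HAI1, a phosphatase that damps the signal, had 5.20, 4.27 and 5.18 TPM in T31A, against 7.79, 7.51 and 8.52 TPM in K36A (log2 difference -0.61, SE 0.114, adjusted p = 0.0011). RD26, a stress-induced transcription factor, averaged 11.9 ± 0.856 TPM in T31A and 16.2 ± 0.603 TPM in K36A. The lower count was 2 without T31A replicate 2 or T31A replicate 3 and 3 without any 1 of the K36A libraries, and it was 2 with voom or quantile normalization and 3 with median-of-ratios factors. The higher count was 1 without T31A replicate 1, T31A replicate 3, K36A replicate 2 or K36A replicate 3, and 3 with median-of-ratios factors, after removal of the length and GC trend or with voom.

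Indole defence genes differed in both directions. Of 20 tested, 6 were higher and 3 lower in T31A, where 10.3% and 18.1% of all genes were. The median, 0.03, was close to that of all genes. Besides CYP71A12 and FOX1, the higher genes included CYP81F2, which modifies indole glucosinolates, with 21.1, 20.5 and 19.7 TPM in T31A, against 5.09, 3.37 and 4.91 TPM in K36A (log2 difference 1.99, SE 0.134, adjusted p = 1.8e-07). The methyltransferase gene IGMT2, which acts on the same compounds, averaged 14.05 ± 0.855 TPM in T31A and 3.75 ± 0.986 TPM in K36A. CYP82C2, which adds a hydroxyl group to indole-3-carbonylnitrile, averaged 1.89 ± 0.0902 TPM in T31A and 0.0758 ± 0.0880 TPM in K36A and passed the filter through T31A alone. The myrosinase gene PEN2 averaged 123 ± 5.52 TPM in T31A and 83.9 ± 0.308 TPM in K36A. CYP79B3, which opens the pathway from tryptophan, was lower, with 47.6, 50.3 and 48.7 TPM in T31A, against 78.2, 80.9 and 79.2 TPM in K36A (log2 difference -0.69, SE 0.0584, adjusted p = 1.2e-06). CYP79B2, CYP83B1 and PAD3, the last enzyme of camalexin synthesis, were not called, with 3.49 TPM in T31A against 3.56 TPM in K36A for PAD3. CYP71A12 was at 0.450 TPM in efs and 2.79 TPM in Col, so T31A was the high genotype. Of 15 aliphatic glucosinolate genes, 1 was higher and 2 lower, beside the same shares of all genes. CYP79F2 was among the lower ones (20.7 ± 1.43 TPM in T31A and 28.6 ± 0.893 TPM in K36A). The higher one lost its call without T31A replicate 1 or K36A replicate 1, and 1 of the lower ones without T31A replicate 1, T31A replicate 3, K36A replicate 1 or K36A replicate 2, with median-of-ratios factors or with voom.

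Other defence genes differed without a common direction in their lists. Of 12 salicylic acid genes 3 were higher and 4 lower, where 10.3% and 18.1% of all genes were. FMO1 passed the filter through T31A alone. CBP60g (AT5G26920), a calmodulin-binding activator of salicylic acid synthesis, had 8.10, 7.77 and 6.95 TPM in T31A, against 1.51, 1.80 and 2.05 TPM in K36A (log2 difference 1.63, SE 0.147, adjusted p = 2.0e-06). WRKY70, a transcription factor of the response, was lower, with 4.69, 3.23 and 4.17 TPM in T31A, against 9.18, 8.83 and 10.02 TPM in K36A (log2 difference -1.05, SE 0.125, adjusted p = 2.5e-05). NPR4, a salicylic acid receptor, averaged 23.6 ± 1.16 TPM in T31A and 32.7 ± 1.65 TPM in K36A. CBP60g was at 1.36 TPM in efs and 1.21 TPM in Col, so T31A was the high genotype. Of 22 jasmonate genes 6 were higher and 4 lower, beside the same shares of all genes. VSP1, a vegetative storage protein and late jasmonate marker, had 11.2, 10.7 and 10.4 TPM in T31A, against 36.3, 39.9 and 37.7 TPM in K36A (log2 difference -1.73, SE 0.0794, adjusted p = 4.5e-09). AOS, an enzyme of jasmonate synthesis, had 195, 179.6 and 191 TPM in T31A, against 116, 115 and 116 TPM in K36A (log2 difference 0.70, SE 0.0649, adjusted p = 2.5e-06). JAZ6, a repressor of the response, averaged 28.9 ± 1.65 TPM in T31A and 17.64 ± 0.556 TPM in K36A. AOS and JAZ6 were higher in every T31A library and VSP1 lower in every one, and VSP2 was lower at a log2 difference of -0.63.

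Several touch genes and most EXORDIUM genes were higher in T31A. Of 13 touch and rapid stress genes 5 were higher and 1 lower, where 10.3% and 18.1% of all genes were. Their median was 0.30. The lower call was lost without T31A replicate 1, T31A replicate 3, K36A replicate 2 or K36A replicate 3, and with quantile normalization, under which 8 were higher. TCH4 (AT5G57560), a touch-induced xyloglucan enzyme, had 236, 239 and 242 TPM in T31A, against 104, 101.3 and 99.0 TPM in K36A (log2 difference 1.23, SE 0.0857, adjusted p = 2.2e-07). TCH2, a calmodulin-like protein, averaged 46.3 ± 4.405 TPM in T31A and 32.01 ± 1.52 TPM in K36A. WRKY33, a defence regulator, averaged 31.3 ± 1.56 TPM in T31A and 19.8 ± 0.810 TPM in K36A. Of 7 EXORDIUM family genes, 6 were higher and none lower, beside the same shares of all genes, with a median of 0.57. EXL5 had 343, 284 and 323 TPM in T31A, against 159, 188 and 141 TPM in K36A (log2 difference 0.96, SE 0.130, adjusted p = 7.8e-05). EXL3 averaged 436 ± 27.4 TPM in T31A and 294 ± 40.1 TPM in K36A. EXL2 averaged 441 ± 26.1 TPM in T31A and 299 ± 25.2 TPM in K36A. EXL7 alone was not called (2.81 TPM in T31A against 3.06 TPM in K36A). For PHI-1, EXL2, EXL3 and TCH4 the means ran, from high to low, in the order efs, T31A, K36A and Col, with TCH4 at 723 TPM in efs and 34.5 TPM in Col.

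The xyloglucan endotransglucosylases, which cut and rejoin wall polymers, divided into 11 higher and 10 lower of 27, with a median of 0.09. Of all genes, 10.3% were higher and 18.1% lower. XTH24 had 374, 367 and 386 TPM in T31A, against 169, 159 and 170.5 TPM in K36A (log2 difference 1.17, SE 0.0609, adjusted p = 1.6e-08). XTH33 had 12.9, 12.8 and 12.3 TPM in T31A, against 4.06, 3.41 and 2.96 TPM in K36A (log2 difference 1.62, SE 0.110, adjusted p = 1.8e-07). XTH9 averaged 428 ± 17.2 TPM in T31A and 240.4 ± 26.01 TPM in K36A. XTH4 averaged 425 ± 4.71 TPM in T31A and 259.6 ± 12.4 TPM in K36A. These 4 were higher in every T31A library. XTH14 (AT4G25820), a gene of the root epidermis, had the largest fall, with 15.1, 13.3 and 12.6 TPM in T31A, against 44.2, 44.3 and 47.4 TPM in K36A (log2 difference -1.66, SE 0.0889, adjusted p = 2.0e-08). XTH21, XTH26, XTH19 and XTH17, also known from roots, were lower, at log2 differences of -1.19, -0.99, -0.69 and -0.36. XTH18 and XTH20, near relatives of XTH17 and XTH19, were not called. Root markers were lower in the same libraries, and their part in these falls was not tested.

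Heat shock genes were lower in T31A, 11 of 21 (18.1% of all genes were lower) against 2 higher, with a median of -0.43. HSP18.2 (AT5G59720), a small chaperone, had 4.45, 3.21 and 3.97 TPM in T31A, against 19.9, 20.996 and 18.22 TPM in K36A (log2 difference -2.09, SE 0.109, adjusted p = 1.6e-08). HSP70 (AT3G12580), a heat-inducible form, had 29.5, 29.9 and 29.6 TPM in T31A, against 62.7, 66.8 and 59.4 TPM in K36A (log2 difference -1.06, SE 0.0708, adjusted p = 1.6e-07). MBF1C, a coactivator of heat tolerance, had 7.95, 7.43 and 7.78 TPM in T31A, against 23.3, 23.9 and 22.1 TPM in K36A (log2 difference -1.47, SE 0.0988, adjusted p = 1.7e-07). In each, the highest T31A library lay far below the lowest K36A library. ROF2, a chaperone-bound isomerase, averaged 9.93 ± 1.16 TPM in T31A and 22.5 ± 1.57 TPM in K36A. HSP90.1, the heat-inducible HSP90 form, averaged 25.4 ± 2.02 TPM in T31A and 50.0 ± 3.25 TPM in K36A. The repressor HSFB2A averaged 4.304 ± 0.149 TPM in T31A and 9.49 ± 0.0999 TPM in K36A. The primary heat shock factors HSFA1A, HSFA1B, HSFA1D and HSFA1E were not called, and HSFA3 and HSFA4A were higher, HSFA3 with 10.3 TPM in T31A against 7.37 TPM in K36A. Col was not low throughout, with means of 103 TPM for HSP70 and 32.3 TPM for MBF1C but 7.35 TPM for HSP18.2. The higher count was 1 without T31A replicate 2 or T31A replicate 3, 4 with median-of-ratios factors or after removal of the length and GC trend, and 5 with quantile normalization. The lower count was 11 or 12 under these alternatives and without any 1 library.

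Several regulators of greening were lower in T31A, and the count of antenna genes called depended on the scaling. Of 19 antenna genes 1 was called on the deposited scale, where 28.4% of all genes were. It was LHCB4.3, lower with 10.3, 10.4 and 11.6 TPM in T31A, against 17.36, 16.9 and 20.99 TPM in K36A (log2 difference -0.72, SE 0.119, adjusted p = 4.2e-04). After removal of the length and GC trend 9 antenna genes were higher and 1 lower, and with voom on recovered reads 4 were higher and 1 lower. With quantile normalization none was higher and 3 were lower. Without T31A replicate 2 another was higher, and without K36A replicate 3 a further one lower. Of 16 chlorophyll synthesis and greening genes 5 were lower and 2 higher, where 18.1% and 10.3% of all genes were. The other 9 were not called. The list's median log2 difference was -0.11 and its highest 0.27. GLK2 (AT5G44190), which activates photosynthesis genes, had 61.9, 57.3 and 62.6 TPM in T31A, against 111.3, 109 and 96.1 TPM in K36A (log2 difference -0.79, SE 0.0714, adjusted p = 2.2e-06). GNC, a GATA factor of greening, averaged 15.8 ± 0.477 TPM in T31A and 27.1 ± 1.66 TPM in K36A. HY5, the light signalling factor, averaged 11.3 ± 0.744 TPM in T31A and 17.84 ± 2.66 TPM in K36A. All 3 were lower in every T31A library. PORA, a protochlorophyllide reductase of etiolated seedlings, averaged 0.709 TPM in T31A against 2.72 TPM in K36A and passed the filter through K36A alone. The higher count was 0 without T31A replicate 2 or K36A replicate 2 and 1 without T31A replicate 1 or K36A replicate 1, or with quantile normalization. Of 16 carotenoid genes, 2 were higher, CRTISO among them, and 4 lower, beside the same shares of all genes. The higher count was 1, CRTISO, without T31A replicate 1, T31A replicate 2, K36A replicate 1 or K36A replicate 2. CCD4, which cleaves carotenoids, had 117, 115 and 109 TPM in T31A, against 214, 194 and 204 TPM in K36A (log2 difference -0.84, SE 0.0678, adjusted p = 7.5e-07). ABA1, a zeaxanthin epoxidase, averaged 112 ± 2.34 TPM in T31A and 139 ± 5.56 TPM in K36A. For GLK2 and CCD4 the means ran, from low to high, in the order efs, T31A, K36A and Col, with 31.96 TPM in efs and 150.4 TPM in Col for GLK2 and 62.1 TPM in efs and 266 TPM in Col for CCD4.

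Sugar starvation genes differed in both directions, and 2 of 13 auxin response genes passed the test, both higher in T31A. Of 13 sugar starvation genes 5 were higher and 3 lower, where 10.3% and 18.1% of all genes were. ASN1, a dark-induced asparagine synthetase, had 121, 119 and 115 TPM in T31A, against 62.8, 62.4 and 62.5 TPM in K36A (log2 difference 0.91, SE 0.0555, adjusted p = 7.5e-08). MIOX2, an inositol oxygenase, averaged 16.9 ± 0.537 TPM in T31A and 7.61 ± 0.882 TPM in K36A. BGAL4, a galactosidase, averaged 41.0 ± 1.34 TPM in T31A and 71.8 ± 6.44 TPM in K36A. ASN1 and MIOX2 were higher in T31A and BGAL4 lower, and in efs ASN1 reached 597 TPM and MIOX2 217 TPM. Of 13 auxin response genes 2 were higher and none lower, beside the same shares of all genes. IAA3, a repressor of the auxin response, averaged 60.8 ± 2.03 TPM in T31A and 40.5 ± 2.76 TPM in K36A, and the count was 1 without T31A replicate 1, T31A replicate 2, K36A replicate 1 or K36A replicate 3. The count was 4 with quantile normalization, 5 with median-of-ratios factors, 8 after removal of the length and GC trend and 3 with voom, with none lower.

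Of 13 mitotic cyclin and CDKB kinase genes, which drive cells into division, 5 were lower and none higher. Of all genes, 18.1% were lower and 10.3% higher. CYCB2;3 averaged 6.999 ± 0.354 TPM in T31A and 10.7 ± 1.17 TPM in K36A. CYCB1;2 averaged 16.4 ± 0.945 TPM in T31A and 20.9 ± 1.17 TPM in K36A. The count was 2 without T31A replicate 2 or K36A replicate 2, 3 without T31A replicate 1, K36A replicate 1 or K36A replicate 3, and 2 with quantile normalization or after removal of the length and GC trend. Of 14 DNA damage response genes 4 were higher and none lower, beside the same shares of all genes. GMI1, a repair gene, averaged 3.39 ± 0.274 TPM in T31A and 2.24 ± 0.158 TPM in K36A. SMR7, which arrests the cell cycle after damage, averaged 3.14 ± 0.651 TPM in T31A and 1.44 ± 0.661 TPM in K36A and lost its call without T31A replicate 3. The count was 2 without T31A replicate 2 or T31A replicate 3 and 3 without K36A replicate 1 or K36A replicate 2. It was 5 with median-of-ratios factors, quantile normalization or voom, and after removal of the length and GC trend.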

How the data were processed

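RNA-seq libraries of 4 genotypes with 3 libraries each were analysed, grouped by their titles. The submitters' processing notes name DESeq2 1.26.0, fastp 0.20.1 and HISAT2 2.1.10, and the build TAIR10. The read counter, the use of strand and the treatment of reads matching several genes are not given in the sources used here. TPM values of 23916 genes were deposited, scaled by the authors. Their columns are named as gene counts but share one sum. The gene length behind them is the whole span with introns. Within 0.05 of a read, 100.0% of values under 200 reads were whole reads, and voom on those reads was added as an alternative after seeing the data. The 12 libraries held 17621000 to 34098031 recovered reads.

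Log2(TPM + 1) of 19610 genes was fitted with limma 3.58.1 (R 4.3.3) over all 12 libraries and 4 groups, with a trend in the prior variance. The contrast T31A minus K36A was tested two-sided with Benjamini-Hochberg adjustment over these genes, and calls were made at an adjusted p under 0.05. This scale understates changes of low genes. Of the tested genes, 54 passed the filter of 1 TPM in 3 libraries through T31A alone and 237 through K36A alone. The third-highest TPM was 1.002 in the gene just inside and 0.999 in the gene just outside. The fit was checked on simulated data. Alternatives were pseudocounts of 0.1 and 5, other filters, libraries and scalings, a replicate block, a length and GC trend, a fold of 2, and leaving out each T31A or K36A library.

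Genes were named by rule: the FLC clade, EFS and the H3.3 genes; the 15 steepest rises and 15 steepest falls that were called, protein-coding, at a mean of at least 5 TPM and without overlap between groups; and, for each of 35 gene lists, up to 4 called members of smallest p, or 2 where none was called. Other members are named by value within their list, and 1 gene named by the rule is not reported here. The comparison, the rule and the lists were chosen with earlier results of these data known, and no list is independent evidence. Of 137 genes named by rule, 30 overlap another annotated gene. TAIR10.1 supplied names, spans and the sequences shown.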

Additional observations from a re-analysis of the deposited data

How the results depend on the processing

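The counts of 2027 higher and 3551 lower genes stayed within 1.5 times under the alternatives run, with these exceptions. With a fold of at least 2 they were 133 and 341, and after removal of the length and GC trend 3041 genes were higher (2995 lower). The cause was not tested. Without 1 library, 1455 to 1910 genes were higher and 2760 to 3049 lower. The split moved with the scaling: 2772 higher and 2934 lower with median-of-ratios factors, 2788 higher and 2780 lower after quantile normalization, beside the length and GC trend above. With voom on recovered reads, chosen after seeing the data, they were 2833 and 3144, or 2239 and 3742 by library size only. Of 128 called named genes, 107 stayed called under every alternative but the fold, and none changed sign. Same-numbered libraries deviated with correlations of 0.113, -0.262 and -0.183, and not every library correlated best with its own number. The highest correlation was 0.319, between T31A replicate 2 and K36A replicate 3. The numbers were therefore not treated as pairs, and whether libraries shared batches was not tested. With the replicate block 1987 genes were higher and 3508 lower.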

Other observations

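Extensins were looked at as a set by annotation after their place among the largest falls had been seen, so the following is a description. The set took every gene with the word extensin in its annotated product. Besides wall extensins it holds genes of the Pollen Ole e 1 allergen and extensin family and proline-rich extensin-like receptor kinases such as PERK1. Of these 51 genes 43 were tested, and 27 were lower and 4 higher in T31A, with a median log2 difference of -0.62. Of all genes, 18.1% were lower and 10.3% higher. EXT3 had 378, 361 and 287 TPM in T31A, against 723, 674 and 667 TPM in K36A, with no overlap. Of the 4 higher genes AT1G26240, annotated as proline-rich and extensin-like, had the largest difference, with 5.50, 6.68 and 5.69 TPM in T31A, against 0.592, 0.643 and 1.17 TPM in K36A (log2 difference 1.96, SE 0.153, adjusted p = 5.8e-07). No libraries of the genotypes overlapped in it. The count of lower genes in this set was 23 to 28 in the fits without 1 library. Root markers, among them the root hair gene LRX1, which is also in this set, were lower in the same libraries, and their part was not tested.

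Calls varied with the span of the gene on the deposited scale. In the shortest of 5 equal groups of genes by span, 25.9% were lower and 7.92% higher in T31A, against 10.7% lower and 10.8% higher in the longest group. The median log2 difference was -0.11 in the shortest group and -0.01 in the longest.

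More genes were above 0 TPM in each K36A library, 22676 to 22792, than in any T31A library, 22196 to 22463, although the deepest library was a T31A one. Likewise 237 genes passed the filter through K36A alone and 54 through T31A alone. Among genes under 2 TPM, 6.59% were higher and 27.9% lower in T31A.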
